A study of Mus musculus with 4 samples.

Results

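Haem synthesis was examined in brown fat through the 9 genes Alas1, Alas2, Alad, Uros, Urod, Cpox, Ppox, Fech and Abcb10, which were taken by symbol from the deposited expression values. Each symbol was found on a single row, so the set is 9 of the 55387 rows listed for every library. RNA sequencing was performed on brown adipose tissue of 4 male mice aged 15 weeks, with 1 library per mouse. The methods name the control mice as littermates, without saying which of the 4 shared a litter. Expression was given as FPKM, sequenced fragments per kilobase of transcript adjusted for library depth, so levels are per length and can be set side by side between genes.

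The control group was Sox4f/f, in which both Sox4 alleles carry loxP sites and no Cre is present (n = 2 mice, genotype WT in the sample labels). The other group was Sox4-MKO, which carries the same floxed alleles and a Cre recombinase driven by Myf5 (n = 2 mice). Myf5 is active in the precursors of brown adipocytes and also in those of skeletal muscle, so the deletion is not limited to brown fat. The tissue was sequenced whole, with its vessels, blood and immune cells. With 2 mice against 2, p-values measure only the spread between these libraries, and an exact two-sided permutation test of a single gene cannot go below 0.333.

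Haem is an iron-holding porphyrin that is built partly in mitochondria and partly in the cytosol. The pathway starts in the mitochondrial matrix, where 5-aminolevulinate synthase joins glycine to succinyl-CoA, passes through the cytosol, where Alad, Uros and Urod act, and returns to mitochondria for Cpox, Ppox and Fech. In cells other than red cell precursors the first step is made by Alas1 and sets the pace of the pathway, whereas Alas2 serves red cell precursors. Brown fat has a high need for haem because the cytochromes of its many mitochondria carry it.

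Promoter sequence was available for 8 of the 9 genes (RefSeq, GRCm38.p6), in 11 windows, since some genes have more than 1 start. Fech had no window. The 250 bases before each start were searched on both strands for 6 kinds of short motif, and the 4 stretches below are shown because they hold a motif that matters for haem genes or for brown fat. In the Alas1 and Abcb10 stretches the capitals mark the matches to GCATGCGC, the core of the site of NRF1, a factor known for mitochondrial genes. The 2 matches, 1 on each strand, overlap by most of their length. In the Alas2 stretch they mark AGATAA on the reverse strand, a GATA site, and in the Ppox stretch TCCCNNGGG, a site of the EBF family, whose 2 matches also overlap. Each stretch is written 5′ to 3′ on the strand of its gene.
Alas1, chr9:106247906-106247935, minus strand: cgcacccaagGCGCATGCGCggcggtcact
Abcb10, chr8:123983123-123983222, minus strand: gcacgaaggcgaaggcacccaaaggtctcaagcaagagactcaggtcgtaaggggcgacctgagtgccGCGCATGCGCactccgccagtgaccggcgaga
Alas2, chrX:150547267-150547366, plus strand: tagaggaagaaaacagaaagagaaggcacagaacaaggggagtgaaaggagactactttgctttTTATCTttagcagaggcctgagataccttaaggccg
Ppox, chr1:171281377-171281436, minus strand: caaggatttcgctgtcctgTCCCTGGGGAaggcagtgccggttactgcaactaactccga

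GCATGCGC was found in 2.26% of 32851 promoter windows of 27025 genes, and in 2 of the 11 windows here, those of Abcb10 and of 1 of the Alas1 starts. In Abcb10 it lay 23 to 32 bases before the start. In Alas1 it lay 186 to 195 bases before the RefSeq start of its window. GENCODE M21 lists 13 Alas1 transcripts, and 4 of them start 46 to 64 bases after the motif. AGATAA was in 9.99% of all windows and in Alas2, which also held the nuclear receptor motif AAGGTCA, present in 4.08% of windows. TCCCNNGGG was in 5.6% of all windows and in Ppox. The SOX motifs ACAAAG and ACAATG, present in 16.5% and 10.7% of windows, and the AP-1 motif TGAGTCA, present in 4.46%, were in none of the 11. A match describes letters only, and the lack of one says nothing about a factor beyond this window.

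Before the members, the labels were checked. Sox4, the floxed gene, had 1.98 and 1.06 FPKM in the controls, against 0.98 and 3.06 FPKM under the label Sox4-MKO, so its mRNA did not separate the genotypes (log2 fold change 0.20, SE 0.43, limma adjusted p = 0.843). All directions here follow the labels. The tissue itself was brown fat by its markers: Ucp1, the uncoupling protein of brown adipocytes, had 1936 and 1814 FPKM in Sox4f/f and 733 and 1105 FPKM in Sox4-MKO, and 6 of 8 brown adipocyte markers were lower in Sox4-MKO with an unadjusted p under 0.05 (2 without Sox4f/f mouse 1 and 4 without Sox4f/f mouse 2). Depth, estimated from the lowest values, was roughly 12102000 to 16239900 fragments per library. The library of Sox4-MKO mouse 1 stood apart, as the 12 skeletal muscle markers made up 3.41% of its summed FPKM, against 0.702% in Sox4-MKO mouse 2 and 0.0435% and 0.164% in Sox4f/f mice 1 and 2. All 12 were higher in Sox4-MKO on average, 10 of them with an unadjusted p under 0.05. Results of the members are given with and without this mouse where it decides them.

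Of the 9 haem synthesis genes, 5 had a lower mean log2 level in Sox4-MKO and 4 a higher one, and no member passed an adjusted p under 0.05. Of all 12877 genes tested, 7206 were lower and 5671 higher by the same measure, a like split. Alas1, the first enzyme, was the single member with an unadjusted p under 0.05, with a mean FPKM in Sox4-MKO of 0.672 times that in Sox4f/f. Over all 12877 genes tested, 8.28% were lower and 7.95% were higher at an unadjusted p under 0.05 (limma on log2(FPKM + 1)), and 0.0% passed after adjustment, with 0.191 as the lowest adjusted p and 2090 genes under 0.05 before adjustment. The split depends on scaling, from 1066 lower and 1024 higher genes with FPKM as deposited to 746 lower and 1322 higher when libraries were rescaled without mitochondrially encoded genes and Ucp1. The median log2 fold change of the 9 members was -0.11, against -0.05 over all genes tested. Both Sox4f/f libraries lay above both Sox4-MKO libraries at 5 members (Alas1, Alad, Urod, Ppox and Abcb10) and below them at 1 (Uros), where 29.6% and 21.7% of all genes tested had these patterns.

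**Figure D1:**
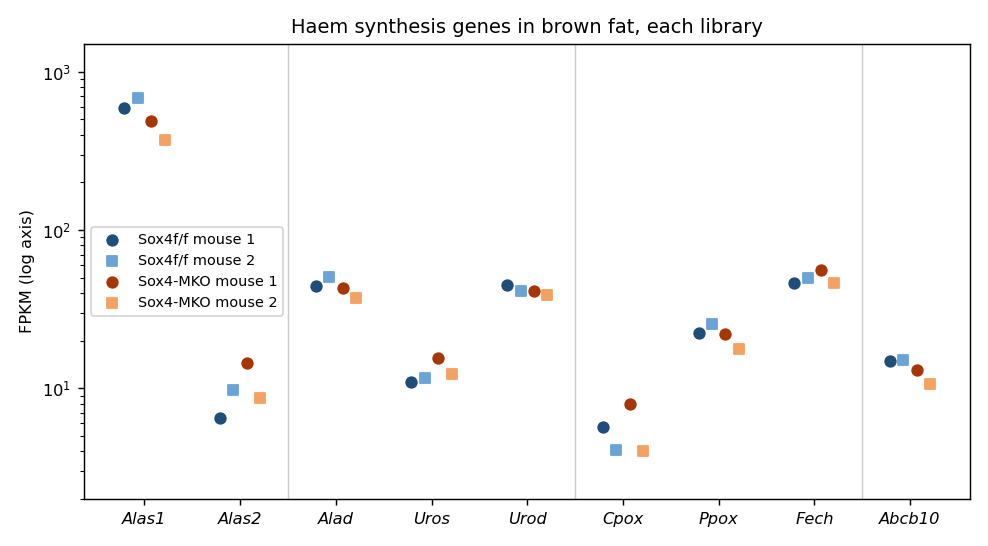
FPKM on a log axis of the 9 haem synthesis genes, in the order of the pathway, with 1 point per library and vertical lines between mitochondrial and cytosolic steps and the transporter Abcb10. Alas1 sits between 371 and 687 FPKM, above every other member, and the 4 libraries of most other genes lie close together.

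In every library Alas1 was the most abundant member and Cpox the least. The order of mean levels in Sox4f/f was Alas1, Fech, Alad, Urod, Ppox, Abcb10, Uros, Alas2 and Cpox, and in Sox4-MKO it differed in the places of Uros and Abcb10. Mean Alas1 FPKM in Sox4f/f was 13.3 times that of Fech and 131 times that of Cpox. Fech, Alad and Urod were neighbours whose libraries overlapped within Sox4f/f, and their order differed from library to library. The other neighbours in that order did not overlap within Sox4f/f. In Sox4-MKO, Uros, Abcb10 and Alas2 overlapped with each other.

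Alas1 (chromosome 9, 106233455 to 106248654, minus strand, GRCm38 from GENCODE M21, as for all genes here) encodes the housekeeping form of 5-aminolevulinate synthase. Its FPKM was 591 and 687 in the Sox4f/f mice and 488 and 371 FPKM in the Sox4-MKO mice, from an estimated 11074 to 15282 fragments. Both control mice were above both Sox4-MKO mice, and the 4 values stood at percentiles 99.0 to 99.5 of the rows above 0 in their libraries. Mean Alas1 was 639 ± 68.2 FPKM in the controls, against 430 ± 82.7 FPKM with Sox4-MKO (SD, n = 2 per genotype). Its log2 fold change was -0.58 (SE 0.18, 95% interval -1.06 to -0.10), with an unadjusted limma p of 0.0277 and an adjusted p of 0.254. A log2 fold change as low or lower was found at 4.95% of the genes tested. Without Sox4-MKO mouse 1 it was -0.78 (unadjusted p = 0.0113, adjusted p = 0.272), and without Sox4-MKO mouse 2 it was -0.38 (unadjusted p = 0.0709, adjusted p = 0.307). It was -0.69 when Sox4f/f mouse 1 was left out (unadjusted p = 0.0733, adjusted p = 0.692) and -0.47 when Sox4f/f mouse 2 was (unadjusted p = 0.163, adjusted p = 0.610). The unadjusted p was thus above 0.05 without any 1 of these 3 mice. In whole tissue, fewer cells of a type and less RNA per cell cannot be told apart.

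Alas2 (chromosome X, 150547375 to 150570638, plus strand) encodes the erythroid form of the same enzyme. It had 6.54 and 9.69 FPKM in Sox4f/f and 14.4 and 8.66 FPKM in Sox4-MKO, so the genotypes overlapped and Sox4-MKO mouse 1 was the highest. The log2 fold change was 0.44 (SE 0.31, 95% interval -0.37 to 1.25, limma adjusted p = 0.509), and 0.11 without Sox4-MKO mouse 1. Alas2 made up 1.09% and 1.39% of the summed Alas1 and Alas2 FPKM in Sox4f/f and 2.86% and 2.28% in Sox4-MKO. The share was higher in both Sox4-MKO mice, and Alas1 gave nearly all of the sum in each library.

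Red cell transcripts are carried into any tissue with its blood, so Alas2 was set beside the globins. The summed FPKM of Hba-a1, Hba-a2, Hbb-bs and Hbb-bt was 835 and 1220.5 in Sox4f/f mice 1 and 2 and 1540.1 and 1009.6 in Sox4-MKO mice 1 and 2. The 4 libraries had the same order for Alas2 and for the globins, although the points share each library's scaling. Per 1000 globin FPKM, Alas2 had 7.83 and 7.94 FPKM in Sox4f/f and 9.33 and 8.58 FPKM in Sox4-MKO, a narrower range than that of Alas2 alone. The other 10 erythroid markers that were listed, among them Slc4a1, Rhag, Klf1 and Gata1, were all at or below 1.1 FPKM, and Rhag was listed at 0 in 3 libraries. Near-identical globin copies can exchange fragments, so their sum was used. The part of blood in the Alas2 values was not tested.

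**Figure D2:**
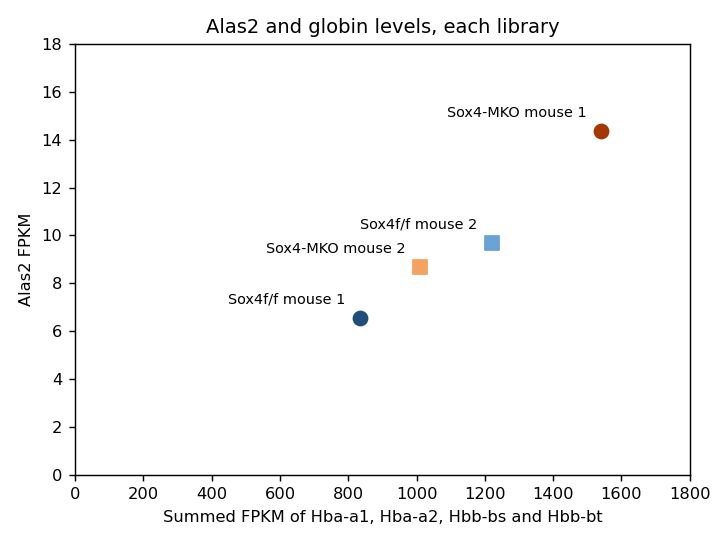
Alas2 FPKM against the summed FPKM of the 4 globin genes, both on linear axes from 0, with 1 labelled point per library. Sox4f/f mouse 1 is lowest on both axes and Sox4-MKO mouse 1 highest on both, and the genotypes interleave.

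The cytosolic steps were close to each other in the genotypes. Alad (chromosome 4, 62509169 to 62519918, minus strand), the dehydratase that joins a pair of 5-aminolevulinate molecules into porphobilinogen, had 44.3 and 50.3 FPKM in Sox4f/f and 43.3 and 37.0 FPKM in Sox4-MKO. The Sox4f/f mice were above, by a small margin at the nearest pair, and the log2 fold change of -0.23 had an SE of 0.14 (95% interval -0.61 to 0.15, limma adjusted p = 0.473). Urod (chromosome 4, 116989965 to 116994413, minus strand), which decarboxylates uroporphyrinogen, had 45.2 and 41.2 FPKM in Sox4f/f and 41.0 and 39.0 FPKM in Sox4-MKO. Relative to its level this was the narrowest range of the 9 genes, and the log2 fold change was -0.11 (SE 0.12, 95% interval -0.42 to 0.21, limma adjusted p = 0.678).

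Uros (chromosome 7, 133686243 to 133710072, minus strand), the synthase that closes the ring as uroporphyrinogen III, had the opposite order. It had 10.9 and 11.6 FPKM in Sox4f/f and 15.5 and 12.2 FPKM in Sox4-MKO, from an estimated 109 to 155 fragments, where counting alone gives an error of 8.04% to 9.56%. It was the only member with both Sox4-MKO mice above both controls. The log2 fold change was 0.27 (SE 0.17, 95% interval -0.17 to 0.71, limma adjusted p = 0.473), and 0.11 without Sox4-MKO mouse 1. The ratio of Uros to Urod was 0.242 and 0.282 in Sox4f/f and 0.378 and 0.314 in Sox4-MKO.

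The steps that return to mitochondria went in both directions. Cpox (chromosome 16, 58670292 to 58717636, plus strand), the coproporphyrinogen oxidase of the intermembrane space, had 5.71 and 4.08 FPKM in Sox4f/f and 7.98 and 4.0 FPKM in Sox4-MKO. The mice of each genotype differed more than the genotypes did, and the log2 fold change of 0.20 (SE 0.34, 95% interval -0.71 to 1.10, limma adjusted p = 0.794) became -0.22 without Sox4-MKO mouse 1. Ppox (chromosome 1, 171275990 to 171281186, minus strand), which oxidizes protoporphyrinogen, had 22.3 and 25.5 FPKM in Sox4f/f and 22.0 and 17.7 FPKM in Sox4-MKO. Its log2 fold change was -0.26 (SE 0.17, 95% interval -0.70 to 0.17, limma adjusted p = 0.475), with the nearest mice of the genotypes almost level.

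Fech (chromosome 18, 64452914 to 64490251, minus strand), ferrochelatase, inserts iron and completes haem. It had 46.4 and 50.0 FPKM in Sox4f/f and 56.1 and 46.5 FPKM in Sox4-MKO, and the genotypes overlapped. The log2 fold change was 0.08 (SE 0.14, 95% interval -0.30 to 0.46, limma adjusted p = 0.794) and -0.050 without Sox4-MKO mouse 1. The ratio of Fech to Ppox, the enzyme before it, was 2.08 and 1.96 in Sox4f/f and 2.55 and 2.63 in Sox4-MKO, without overlap. Against Cpox the ratio of Fech was 8.13 and 12.3 in Sox4f/f and 7.03 and 11.6 in Sox4-MKO, with overlap.

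Abcb10 (chromosome 8, 123952459 to 123983122, minus strand) is a transporter of the inner mitochondrial membrane with a known role in haem synthesis. It had 14.9 and 15.2 FPKM in Sox4f/f and 13.1 and 10.6 FPKM in Sox4-MKO. Both control mice were above, with a spread of 0.23 FPKM (SD) between them. The log2 fold change was -0.32 (SE 0.16, 95% interval -0.74 to 0.09, limma adjusted p = 0.385), the second lowest of the members, and -0.46 without Sox4-MKO mouse 1.

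**Figure D3:**
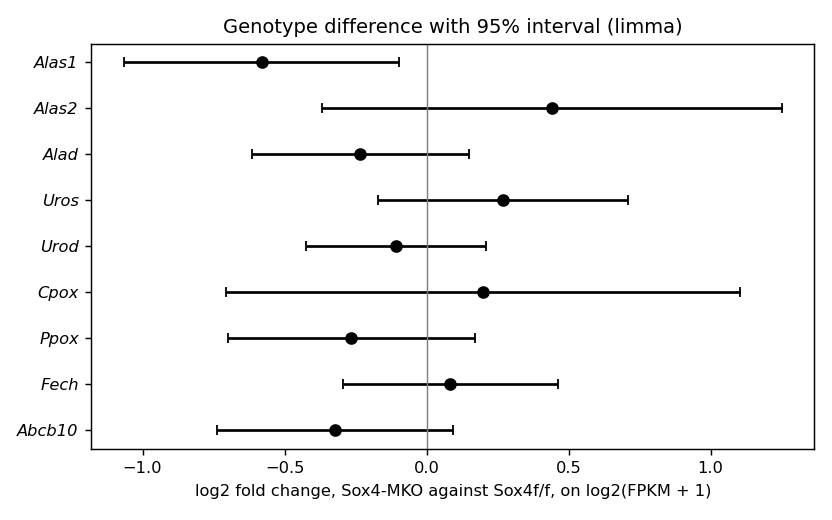
Log2 fold change of each member, Sox4-MKO against Sox4f/f, on the log2(FPKM + 1) scale from limma, with points for the estimate and bars for its 95% interval. The interval of Alas1, from -1.06 to -0.10, is the only one that does not reach 0.

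Sox4-MKO mouse 1 had the highest value of the 4 libraries for Alas2, Uros, Cpox and Fech, which are the 4 members with a higher mean in Sox4-MKO, and it is the library with the most muscle transcript. Without it, 7 of the 9 members were lower in Sox4-MKO, the median log2 fold change was -0.22 against -0.09 over all genes, and Alas1 remained the single member with an unadjusted p under 0.05. The part of muscle tissue in these values was not tested.

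The balance between the first step and the rest differed between genotypes. Alas1 made up 75.1% and 76.8% of the summed FPKM of the 9 members in Sox4f/f and 69.6% and 67.9% in Sox4-MKO. Without Alas1, the sum of the other 8 was 196 and 208 FPKM in Sox4f/f and 213 and 176 FPKM in Sox4-MKO, so the genotypes overlapped. Alas1 had 12.7 and 13.8 times the FPKM of Fech in Sox4f/f and 8.70 and 7.98 times in Sox4-MKO. Against Uros the ratios were 54.1 and 59.2 in Sox4f/f and 31.5 and 30.3 in Sox4-MKO, and against Alad 13.3 and 13.7 in Sox4f/f and 11.3 and 10.0 in Sox4-MKO. Each of these ratios separated the genotypes in the same direction, and all of them rest on the same 4 Alas1 values. No ratio was tested, and the ratio of Fech to Cpox given above overlapped between genotypes.

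By the Euclidean distance between log2(FPKM + 1) values centred on their mean over the 4 libraries, the genes most like Alas1 were Cbr1 (distance 0.038), Tmem53 (0.059), Atn1 (0.068), Aars2 (0.072) and 2610507I01Rik (0.084). Cbr1, a carbonyl reductase, had 62.8 and 73.0 FPKM in Sox4f/f and 53.4 and 39.3 FPKM in Sox4-MKO, the same order of libraries as Alas1. With 4 libraries such likeness is a description only. Among the members, Abcb10 was nearest to Alas1 (distance 0.30, with 3.74% of tested genes nearer), followed by Ppox (0.32) and Alad (0.37). Alas2 was farthest (1.06, with 81.1% of tested genes nearer).

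Haem synthesis was next set beside gene groups that work with it. For each group the counts of genes tested are given. The background shares of 8.28% lower and 7.95% higher apply to the fit of all 4 libraries with FPKM as deposited. In that fit 7206 of all 12877 genes tested were lower at any p. No gene of any group passed an adjusted p under 0.05 by limma.

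Of 18 tested partners of the pathway, which transport its intermediates or mature its enzymes, 14 were lower in Sox4-MKO, 4 of them with an unadjusted p under 0.05, and 4 were higher. The median log2 fold change was -0.31. Slc25a39, a mitochondrial carrier of glutathione linked to haem synthesis, had 164 and 173 FPKM in Sox4f/f and 113 and 112 FPKM in Sox4-MKO (log2 fold change -0.57). Clpp, the protease that works with Clpx in the matrix, had 88.0 and 86.0 FPKM in Sox4f/f and 54.5 and 62.7 FPKM in Sox4-MKO (-0.57). Both genes had less spread within a genotype than between genotypes. Tmem14c, known to carry protoporphyrinogen in red cell precursors, had 284 and 260 FPKM in Sox4f/f and 211 and 169 FPKM in Sox4-MKO (-0.52). Abcb8, another transporter of the inner membrane, had 51.7 and 57.2 FPKM in Sox4f/f and 42.6 and 34.7 FPKM in Sox4-MKO (-0.49). Pgrmc1, a haem-binding partner of ferrochelatase, had a log2 fold change of 0.16 (adjusted p = 0.504).

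Glycine and succinyl-CoA are the substrates of Alas1. Of 11 tested genes that supply them, 10 were lower, 6 with an unadjusted p under 0.05, and 1 was higher, with a median log2 fold change of -0.48. Sucla2, a subunit of succinyl-CoA ligase, had 874 and 812 FPKM in Sox4f/f and 475 and 512 FPKM in Sox4-MKO (-0.77). Shmt1, which makes glycine in the cytosol, had 16.7 and 16.0 FPKM in Sox4f/f and 8.05 and 10.2 FPKM in Sox4-MKO (-0.78). Slc6a9, a glycine transporter, had 0.91 and 0.84 FPKM in Sox4f/f and 2.39 and 1.42 FPKM in Sox4-MKO. It was tested only because its mean exceeded 1 FPKM in Sox4-MKO, so its higher direction was set by the filter.

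Of 13 tested regulators with known links to Alas1 or Alas2, all 13 were lower, 4 of them with an unadjusted p under 0.05. Of the 13, 11 were lower and 2 higher after the rescaling that leaves out mitochondrially encoded genes. Without Sox4f/f mouse 1, and likewise without Sox4-MKO mouse 2, 10 were lower and 3 higher. Ppargc1b, a co-activator of mitochondrial genes, had 36.0 and 36.3 FPKM in Sox4f/f and 14.7 and 17.6 FPKM in Sox4-MKO (log2 fold change -1.12). Ppargc1a, its relative and a known inducer of Alas1, had 48.2 and 22.4 FPKM in Sox4f/f and 13.2 and 14.2 FPKM in Sox4-MKO (-1.21), so the controls differed from each other by more than the Sox4-MKO mice did. The other 2 with such a p were Esrra (-0.52) and Ppara (-0.97), named after their values were seen. Nr1d1, a clock repressor of Alas1 also named after its values were seen, had 95.1 and 6.84 FPKM in Sox4f/f and 45.4 and 9.08 FPKM in Sox4-MKO. Nr1d2, its relative, had 41.5 and 6.48 FPKM in Sox4f/f and 39.1 and 6.88 FPKM in Sox4-MKO. In both genotypes mouse 1 had several times the Nr1d1 and Nr1d2 of mouse 2, and the direction of both genes turned when single libraries were left out. Gata1 and Klf1, the factors of red cell precursors that drive Alas2, reached at most 0.067 and 0.114 FPKM.

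Iron has to reach ferrochelatase. Of 17 tested iron genes, 9 were lower and 8 were higher, with 1 and 2 at an unadjusted p under 0.05. Slc40a1, ferroportin, the exporter of iron from cells, had 14.8 and 15.1 FPKM in Sox4f/f and 4.68 and 6.36 FPKM in Sox4-MKO (-1.30, adjusted p = 0.196). Cp, ceruloplasmin, a ferroxidase, had 12.5 and 12.3 FPKM in Sox4f/f and 25.9 and 31.4 FPKM in Sox4-MKO (1.13, adjusted p = 0.191). Steap3 (0.59), a ferrireductase, was the other gene with such a p and was named after its values were seen. The remaining iron genes that the rule named, Slc39a14 and Hamp, did not separate the genotypes. Hamp was listed at 0 in 3 libraries and entered the test through Sox4-MKO mouse 1 alone. Tfrc, the transferrin receptor, was chosen after its values were seen. It had 25.7 and 28.6 FPKM in Sox4f/f and 108 and 16.9 FPKM in Sox4-MKO, so Sox4-MKO mouse 1 was far above the rest, and its log2 fold change of 0.65 became -0.65 without that mouse.

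All 14 tested genes of iron-sulfur cluster assembly, the other user of mitochondrial iron, were lower in Sox4-MKO, 6 of them with an unadjusted p under 0.05 and with a median of -0.31. After the rescaling that leaves out mitochondrially encoded genes, and likewise without Sox4f/f mouse 1, 13 of the 14 genes were lower and 1 higher. Without Sox4-MKO mouse 2, 11 were lower and 3 higher. Hscb, a co-chaperone of the assembly, had the lowest log2 fold change at -0.43, from 20.0 ± 1.53 FPKM in Sox4f/f to 14.6 ± 0.19 FPKM in Sox4-MKO (SD, n = 2 each), and Iba57 followed at -0.42.

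The genes that use haem did not move as 1 group. Of 22 tested nuclear genes listed for haem proteins, 7 were lower, 3 with an unadjusted p under 0.05, and 15 were higher, 6 with such a p. The 3 were the respiratory subunits Sdhd (-0.56), Cyc1 (-0.55) and Sdhc (-0.50), the last named after its values were seen. The count was 1 without Sox4f/f mouse 1 and 0 without Sox4f/f mouse 2. The 6 higher genes were Mb and, named after their values were seen, Steap4 (0.68), Fads1 (0.57), Cyba (0.54), Cybb (0.54) and Cyb5b (0.51). Cyba and Cybb encode the phagocyte oxidase cytochrome. Cyb5r3 (0.36), also named after its values were seen, is counted among the 15 but is a reductase of cytochrome b5 that holds no haem itself. Mb, the haem protein of muscle, had 16.4 and 38.0 FPKM in Sox4f/f and 485 and 437 FPKM in Sox4-MKO (4.14), and is one of the muscle markers above. Cyp2e1, a cytochrome P450, had 239 and 50.4 FPKM in Sox4f/f and 284 and 354 FPKM in Sox4-MKO (1.52, adjusted p = 0.388), with the controls differing several-fold, and its log2 fold change was 0.41 without Sox4f/f mouse 2.

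Of 14 tested genes of haem breakdown, binding and transport, 4 were lower, none with an unadjusted p under 0.05, and 10 were higher, 4 with such a p. Hmox1, the inducible oxygenase that opens the haem ring, had 8.18 and 11 FPKM in Sox4f/f and 13.7 and 11.1 FPKM in Sox4-MKO (0.34, adjusted p = 0.458), almost level at the nearest pair. Cd163, the scavenger receptor of macrophages for haemoglobin, had 5.39 and 5.15 FPKM in Sox4f/f and 19.8 and 10.6 FPKM in Sox4-MKO (1.31). Abcg2, which can export porphyrins, had 8.80 and 11.1 FPKM in Sox4f/f and 16.2 and 16.9 FPKM in Sox4-MKO (0.69). Abcc5 (0.67) and Fxyd1 (0.52) were the other 2 with such a p, while the biliverdin reductases Blvra (-0.39) and Blvrb (-0.28) had the lowest values. Macrophage markers, which include Cd163 and Hmox1, were also higher in Sox4-MKO. Of 7 tested, 3 had an unadjusted p under 0.05 (1 without Sox4f/f mouse 1), and Timd4 was tested only because its mean exceeded 1 FPKM in Sox4-MKO, so its direction was set by the filter. The summed FPKM of the 10 listed markers was 39.8 and 59.3 in Sox4f/f and 100.4 and 80.0 in Sox4-MKO, and Marco, Vsig4 and Clec4f were listed at 0 in both controls. The part of macrophage number in the breakdown genes was not tested.

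**Figure D4:**
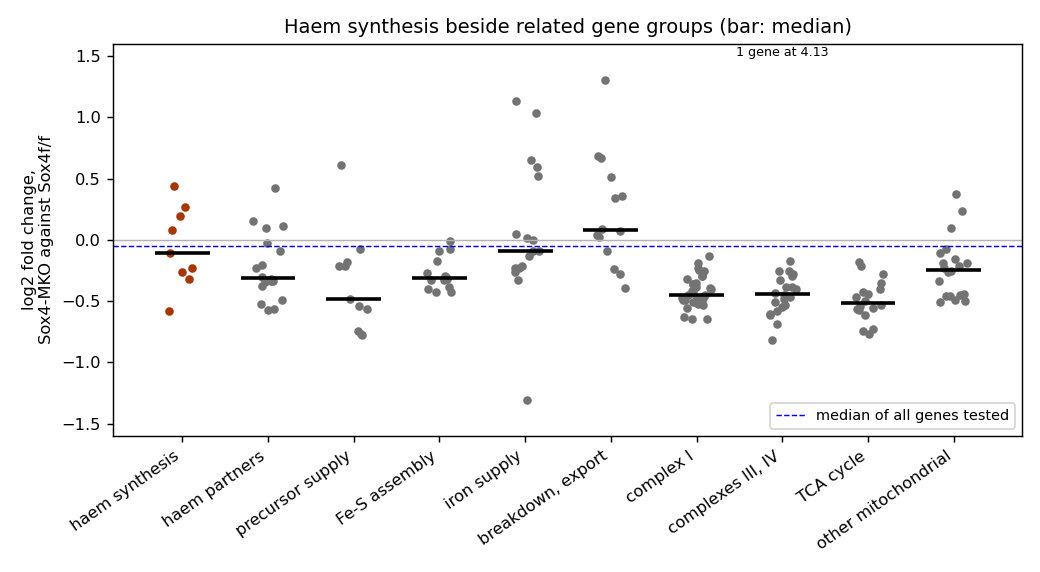
Log2 fold changes, Sox4-MKO against Sox4f/f, of the tested genes in 10 groups, with a bar at each group's median and a dashed line at the median of all genes tested, -0.05. The haem synthesis genes lie on both sides of 0 with a median of -0.11, the respiratory and TCA cycle groups lie mostly below 0, and Cox6a2 at 4.13 is beyond the axis.

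The mitochondrial groups had lower medians than haem synthesis. All 35 tested complex I subunits were lower in Sox4-MKO, 21 of them with an unadjusted p under 0.05 and a median of -0.45. Of 22 tested subunits of complexes III and IV, which hold haem, 21 were lower, 14 of them with such a p, and the median was -0.44. The exception was Cox6a2 (4.13), the form of heart and skeletal muscle, with 1.98 and 19.5 FPKM in Sox4f/f and 255 and 72.1 FPKM in Sox4-MKO. Cox8b (-0.82), Cox6a1 (-0.69), Ndufs7 (-0.65) and Ndufa1 (-0.65) had the lowest values in these groups. All 18 TCA cycle enzymes were lower, 14 with such a p, with a median of -0.52. Of 20 other mitochondrial genes, 17 were lower, 6 with such a p, with a median of -0.24. Among these, Hspe1 and Tomm40 were lowest (both -0.50), and Vdac1 (0.38) and Vdac3 (0.24) were highest. Without Sox4-MKO mouse 1, Hspe1 was at -0.13, Vdac1 at -0.033 and Vdac3 at -0.034, while Tomm40 stayed at -0.50.

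The background shares above do not apply to fits that leave a library out. The counts of genes at an unadjusted p under 0.05 depended on single libraries. Complex I had 3 such genes without Sox4f/f mouse 1, 3 without Sox4f/f mouse 2 and 14 without Sox4-MKO mouse 2. It had 32 when Sox4-MKO mouse 1 was left out, while its median stayed between -0.55 and -0.31. Without Sox4f/f mouse 1, the counts of lower genes were 0 for complexes III and IV, 5 for the TCA cycle, 2 for substrate supply, 2 for the partners, 0 for iron-sulfur assembly and 3 for the other mitochondrial genes. Without Sox4f/f mouse 2 they were 3, 3, 4, 2, 0 and 0 in the same order, and iron-sulfur assembly had 1 without Sox4-MKO mouse 2. The medians of these groups were below 0 in each of these settings. For the breakdown genes the count of higher genes was 0 without Sox4f/f mouse 1 and 1 without Sox4f/f mouse 2, and for haem proteins it was 3 and 2. Of the muscle markers, 4 had such a p without Sox4f/f mouse 1 and 5 without Sox4-MKO mouse 1.

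The members were also set against mitochondrial groups within each library, as a description. In log2 units, Alas1 minus the mean of the 35 complex I genes was 0.74 and 0.95 in Sox4f/f and 0.76 and 0.60 in Sox4-MKO, so the genotypes overlapped and the difference was -0.16. The mean of the other 8 members minus complex I was -4.17 and -4.11 in Sox4f/f and -3.65 and -3.78 in Sox4-MKO, higher in both Sox4-MKO mice by 0.43 on average. Relative to the TCA cycle enzymes the pattern was alike, with overlap for Alas1 (0.26 and 0.44 in Sox4f/f, 0.38 and 0.15 in Sox4-MKO) and a mean difference of 0.50 without overlap for the other 8. Relative to complexes III and IV, Alas1 was lower in both Sox4-MKO mice by 0.34 on average, and the other 8 were higher by 0.25. This group includes the muscle form Cox6a2, whose log2 fold change of 4.13 raises the group mean in Sox4-MKO. That makes Alas1 look lower against the group, and whether the genotypes separate without Cox6a2 was not tested. Relative to the 20 other mitochondrial genes, Alas1 was lower in both Sox4-MKO mice by 0.35, and the other 8 were higher by 0.24. Differences within a library hardly depend on its overall scaling, but they carry the spread of both groups of genes.

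**Figure D5:**
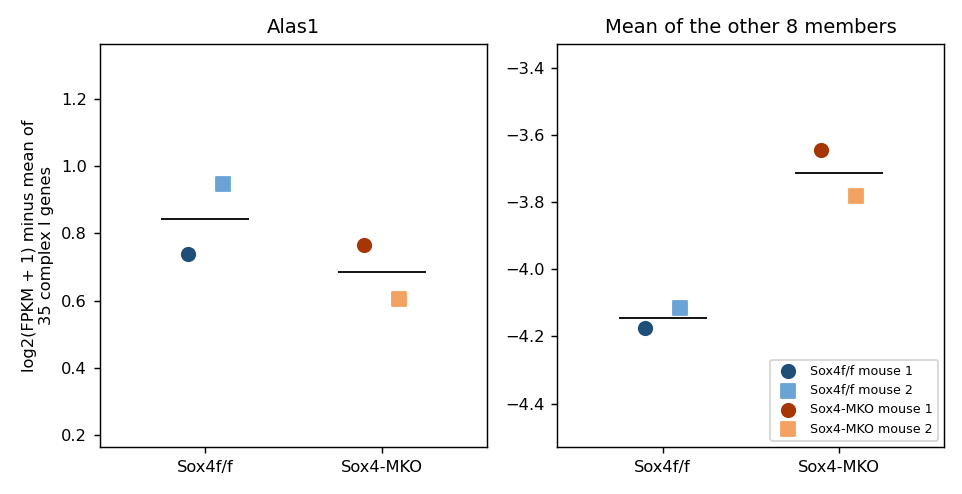
Log2(FPKM + 1) of Alas1 (left) and the mean over the other 8 members (right), each minus the mean of the 35 complex I genes, with 1 point per library and a line at each genotype's mean, on linear axes of different range. Alas1 overlaps between genotypes at 0.60 to 0.95, whereas the other 8 are at -4.17 and -4.11 in Sox4f/f and at -3.65 and -3.78 in Sox4-MKO.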

How the data were processed

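The authors deposited 1 FPKM value per gene and library, and the submitters' processing notes name Cufflinks 2.1.1, Cuffdiff and mm10. The aligner and the annotation are not given in the sources used here. No counts were used, so the depth was estimated from the lowest values and is approximate. From these values, limma 3.58.1 in R 4.3.3 modelled log2(FPKM + 1) by genotype alone, with a trended prior, on the 12877 genes whose mean FPKM exceeded 1 in either genotype, a limit taken from the methods. This scale understates the change of low genes. p-values are two-sided and adjusted by Benjamini-Hochberg over all genes tested. On simulated data with 200 of 12877 genes changed by 1 on the log2 scale, 85.5% of these and 5.88% of the others had p under 0.05, and 0% passed after adjustment. An exact 0 can be a failed estimate. The members and gene lists were chosen with earlier results of these data known. From each list the 2 tested genes with the lowest and the 2 with the highest log2 fold change were named, and from the partner and breakdown lists also those with p under 0.05 and no overlap. Coordinates are from GENCODE M21 (GRCm38), promoters from RefSeq (GRCm38.p6). The labels name a column kit and a stranded library, the methods TRIzol and a TruSeq library, so strand use is uncertain. Alternatives were a replicate block, each library left out, 3 other scalings, 3 other filters, 2 other pseudocounts, no moderation and a fold limit. A few genes of the lists are not reported here by name. Protein sequences and the ChIP sequencing were not used here.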

Additional observations from a re-analysis of the deposited data

How the results depend on the processing

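With 2 mice per genotype the FPKM carry no counts, and the lower-level members (Uros, Cpox and Alas2) rest on few estimated fragments. Over the 14 alternative settings that give a member value, 118 of 126 member values kept their direction and their side of the threshold of 0.05 on the unadjusted limma p-value, and none passed that threshold only under an alternative. The log2 fold change of Alas1 stayed between -0.78 and -0.38, with adjusted p from 0.203 to 0.692, and its unadjusted p was under 0.05 in 9 of 14 settings. It was -0.69 without Sox4f/f mouse 1 (adjusted p = 0.692), -0.47 without Sox4f/f mouse 2 (adjusted p = 0.610) and -0.58 without moderation (adjusted p = 0.492). Cpox reversed to -0.0021 without Sox4f/f mouse 2 and to -0.22 without Sox4-MKO mouse 1, and Fech to -0.050 without Sox4-MKO mouse 1. When each library was left out, Cpox ranged from -0.22 to 0.62 and Fech from -0.050 to 0.22. The cause was not tested.

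The count of members lower at p under 0.05 went from 1 to 0 with a fold change of at least 1.5, with the replicate block and without moderation, and ranged from 0 to 1 when each library was left out. Over all genes, the count lower went from 1066 to 399 with that fold limit and ranged from 404 to 1012 when each library was left out. The count higher went from 1024 to 553 without moderation and ranged from 445 to 1559. The count with an adjusted p under 0.05 ranged from 0 to 5.

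Mouse numbers are shared between the genotypes, but over 12877 genes the deviations of same-numbered libraries had a correlation of -0.012, and no source ties a number to a shared litter or day. Nr1d1 and Nr1d2 went with the number in both genotypes, so sharing for some genes was not settled. With the replicate block, Alas1 had a log2 fold change of -0.58 with an unadjusted limma p of 0.0582 and an adjusted p of 0.347. List counts under these settings were added after seeing the data, and with quantile normalization the count of lower genes of complexes III and IV at p under 0.05 went from 14 to 1.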
